A study of Homo sapiens with 30 samples.

Results

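The genes described here encode the subunits of the 5 oxidative phosphorylation complexes that the nuclear genome supplies, in MDA-MB-231 cells, an established human triple-negative breast cancer line. They were chosen by symbol. Protein-coding genes of GENCODE release 44 lifted to GRCh37 were taken when the symbol began with NDUFA, NDUFB, NDUFC, NDUFS, NDUFV, UQCR, COX4I, COX5, COX6, COX7, COX8, ATP5F1, ATP5M or ATP5P, or was SDHA, SDHB, SDHC, SDHD or CYC1. The rule found 98 of the 20098 protein-coding genes on the autosomes and chromosome X. Complex I gave 46 genes, complex II 4, complex III 10, complex IV 19 and complex V 19. The symbols also brought in 8 complex I assembly factors (NDUFAF1 to NDUFAF8), the supercomplex factor COX7A2L, 2 read-through genes and 9 tissue-restricted or retrocopied forms. These are counted with the rest unless stated. Each read-through gene shares its promoter summits with another member, NDUFC2-KCTD14 with NDUFC2 and ATP5MF-PTCD1 with ATP5MF, so such a promoter is counted for both genes.

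Oxidative phosphorylation passes electrons from NADH and succinate through complexes I to IV to oxygen and uses the resulting proton gradient to make ATP in complex V. A few core subunits are encoded by mitochondrial DNA, and all others are nuclear genes whose proteins are imported, so their promoters are read by RNA polymerase II (Pol II) together with the rest of the nuclear genome. Most of them are used in nearly every cell type, and their promoters are classical sites of the factors NRF1, GABPA and YY1. A handful of complex IV subunits have a muscle, lung or testis form beside the general form.

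Chromatin immunoprecipitation with sequencing used antibodies to SAP30, SIN3A and SIN3B in parental cells only, while Pol II, H3K4me3 and H3K9Ac were profiled both there and in the SAP30-KO1 line. SAP30 is a subunit of the SIN3 corepressor complex, SIN3A and SIN3B are its alternative scaffolds, and H3K4me3 and H3K9Ac mark active promoters. Each of the 9 groups held 2 libraries, and 12 of the 30 samples (inputs and histone H3) were not used here. SAP30-KO1 is a CRISPR/Cas9 knockout line pooled from several single knockout cells after puromycin selection, a step the study does not describe for parental cells. The sample titles name no treatment. No antibody to SAP30 was used in SAP30-KO1, so the lists hold no check of the knockout itself.

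Every library had its own list of 10861 to 54622 peak summits, a summit being the base where a peak is highest, with the authors' score for it. A summit within 1000 bp of a start site was counted as a promoter summit, and the best scored was kept for each gene. Its list rank is its place among all summits of the list, from 0% (best) to 100%, and summits with the same score share a middle rank. A rank says how a promoter stands against the other peaks of its library and not how much protein or mark it carries. The sequencing depth is unknown. Nothing in the labels says that replicates came from separate cultures, so the spread between them may be technical. Of the markers of mesenchymal breast lines, all 6 (VIM, CD44, AXL, CAV1, MSN, LGALS1) had Pol II and H3K4me3 promoter summits in both parental libraries. Of 6 luminal or epithelial markers (ESR1, PGR, CDH1, GATA3, FOXA1, EPCAM), 1 had Pol II summits in both and 5 had H3K4me3 summits, at median ranks of 59.0 and 61.6 against 12.6 and 11.6 for the mesenchymal markers.

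Complex IV has general forms with SAP30 and SIN3B summits and tissue-restricted COX forms with neither. The 150 bases before the RefSeq start are therefore shown for 3 of each. COX5B, COX6B1 and COX8A are general subunits of cytochrome c oxidase, and COX8C, COX6A2 and COX7B2 are tissue-restricted forms. The sequences were taken from RefSeq promoters of GRCh38.p14 and located in GRCh37 by exact match, 5′ to 3′ on the strand of the gene. Capitals mark matches to GCGCANGC (NRF1), CCGGAAG (ETS family, to which GABPA belongs), GGGCGG (SP family) or CCAAT (NF-Y) on either strand.
COX5B, chr2:98262375-98262524, plus strand: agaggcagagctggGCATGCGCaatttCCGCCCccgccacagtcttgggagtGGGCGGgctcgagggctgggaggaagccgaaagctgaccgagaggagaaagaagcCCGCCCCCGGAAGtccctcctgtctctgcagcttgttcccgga
COX6B1, chr19:36139075-36139224, plus strand: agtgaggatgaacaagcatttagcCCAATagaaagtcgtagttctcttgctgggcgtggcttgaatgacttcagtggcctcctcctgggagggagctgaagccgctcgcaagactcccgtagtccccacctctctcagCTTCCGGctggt
COX8A, chr11:63741942-63742091, plus strand: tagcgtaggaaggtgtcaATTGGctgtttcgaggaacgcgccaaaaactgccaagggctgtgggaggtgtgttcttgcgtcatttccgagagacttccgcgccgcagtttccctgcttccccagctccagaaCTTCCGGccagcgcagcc
COX8C, chr14:93813378-93813527, plus strand: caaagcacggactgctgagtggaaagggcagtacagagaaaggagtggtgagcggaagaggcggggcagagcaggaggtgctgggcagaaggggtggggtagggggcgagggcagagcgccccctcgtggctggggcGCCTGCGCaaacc
COX6A2, chr16:31439682-31439831, minus strand: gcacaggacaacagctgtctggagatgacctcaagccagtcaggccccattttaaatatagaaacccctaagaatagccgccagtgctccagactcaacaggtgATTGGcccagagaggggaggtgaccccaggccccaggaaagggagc
COX7B2, chr4:46911263-46911412, minus strand: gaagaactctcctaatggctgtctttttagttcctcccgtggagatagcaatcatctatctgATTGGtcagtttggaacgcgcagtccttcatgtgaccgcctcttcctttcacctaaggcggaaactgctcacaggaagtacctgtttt

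The 3 general forms each held an ETS match within 40 bases of the start, at −37 in COX5B, −12 in COX6B1 and −18 in COX8A, and none of the 3 tissue-restricted forms held one. This does not hold for all general forms: over windows of 300 bases, ETS letters were in 5 of the 9 general complex IV subunits with a RefSeq promoter and not in COX5A, COX7A2, COX7B or COX7C. They were in none of the 4 restricted forms with one. COX8C held an NRF1 match at −13 and had no summit of any target in any list. COX5B, COX6B1 and COX8A had promoter summits of SAP30, SIN3B, Pol II, H3K4me3 and H3K9Ac in every list, and in COX5B the SIN3B summits lay 70 and 105 bp after the start. A motif match is a string in the sequence and was not tested as a binding site.

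Over the whole list, RefSeq promoters of 300 bases (250 before and 50 after the start) matched 77 of 98 members and 15289 protein-coding genes. NRF1 letters were in 31 of the 77, 40.3%, against 16.9% of all promoters. The YY1 letters AANATGGC were in 22, 28.6% against 7.98%, and the ETS letters in 21, 27.3% against 14.4%. The CREB-type string TGACGT was in 13, 16.9% against 9.76%. SP letters (57.1% against 59.3%), CCAAT (35.1% against 36.6%) and TATAAA (9.09% against 9.6%) were about as frequent in members as in all promoters. Among the 8293 genes with SAP30 and SIN3B in both parental libraries the shares were 23.7% for NRF1, 22.9% for ETS and 11.6% for YY1, so the member shares of NRF1 and YY1 also lay above those of occupied promoters. Median GC content was 61.0% in members and 63.0% in all promoters. At least 1 of the NRF1, ETS and YY1 strings was in 48 members, 62.3%, and in 32.8% of all promoters. None of the 7 strings contains another.

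SAP30 and SIN3B were at nearly every general member in parental cells. SAP30 had a promoter summit in both libraries at 89 of 98 members, 90.8%, against 61.2% of all protein-coding genes. SIN3B did so at 88, 89.8% against 51.7%, and SIN3A at 42, 42.9% against 31.5%. Pol II was at 89 members (background 57.7%), H3K4me3 at 88 (63.8%) and H3K9Ac at 89 (61.4%). SAP30, SIN3A and SIN3B together were at 40 members, 40.8% against 30.2% of all genes.

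Most of that excess went with the activity marks. Among genes with Pol II, H3K4me3 and H3K9Ac in all 6 parental lists, SAP30 was at 86 of 87 members, 98.9%, and at 98.3% of all 11276 such genes. SIN3A was at 41 of 87, 47.1% against 54.3%. SIN3B was at all 87 against 88.1%. So at marked promoters the SAP30 share of members was near the background, the SIN3A share lay below it and the SIN3B share above it. The same order was found for 76 marked genes of mitochondrial ribosomal proteins, of which all had SAP30, 44.7% had SIN3A and 96.1% had SIN3B. The order differed for SIN3A in 83 marked cytosolic ribosomal genes, at 66.3%, and in 50 marked assembly factors outside the symbol rule, at 64.0%.

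**Figure D1:**
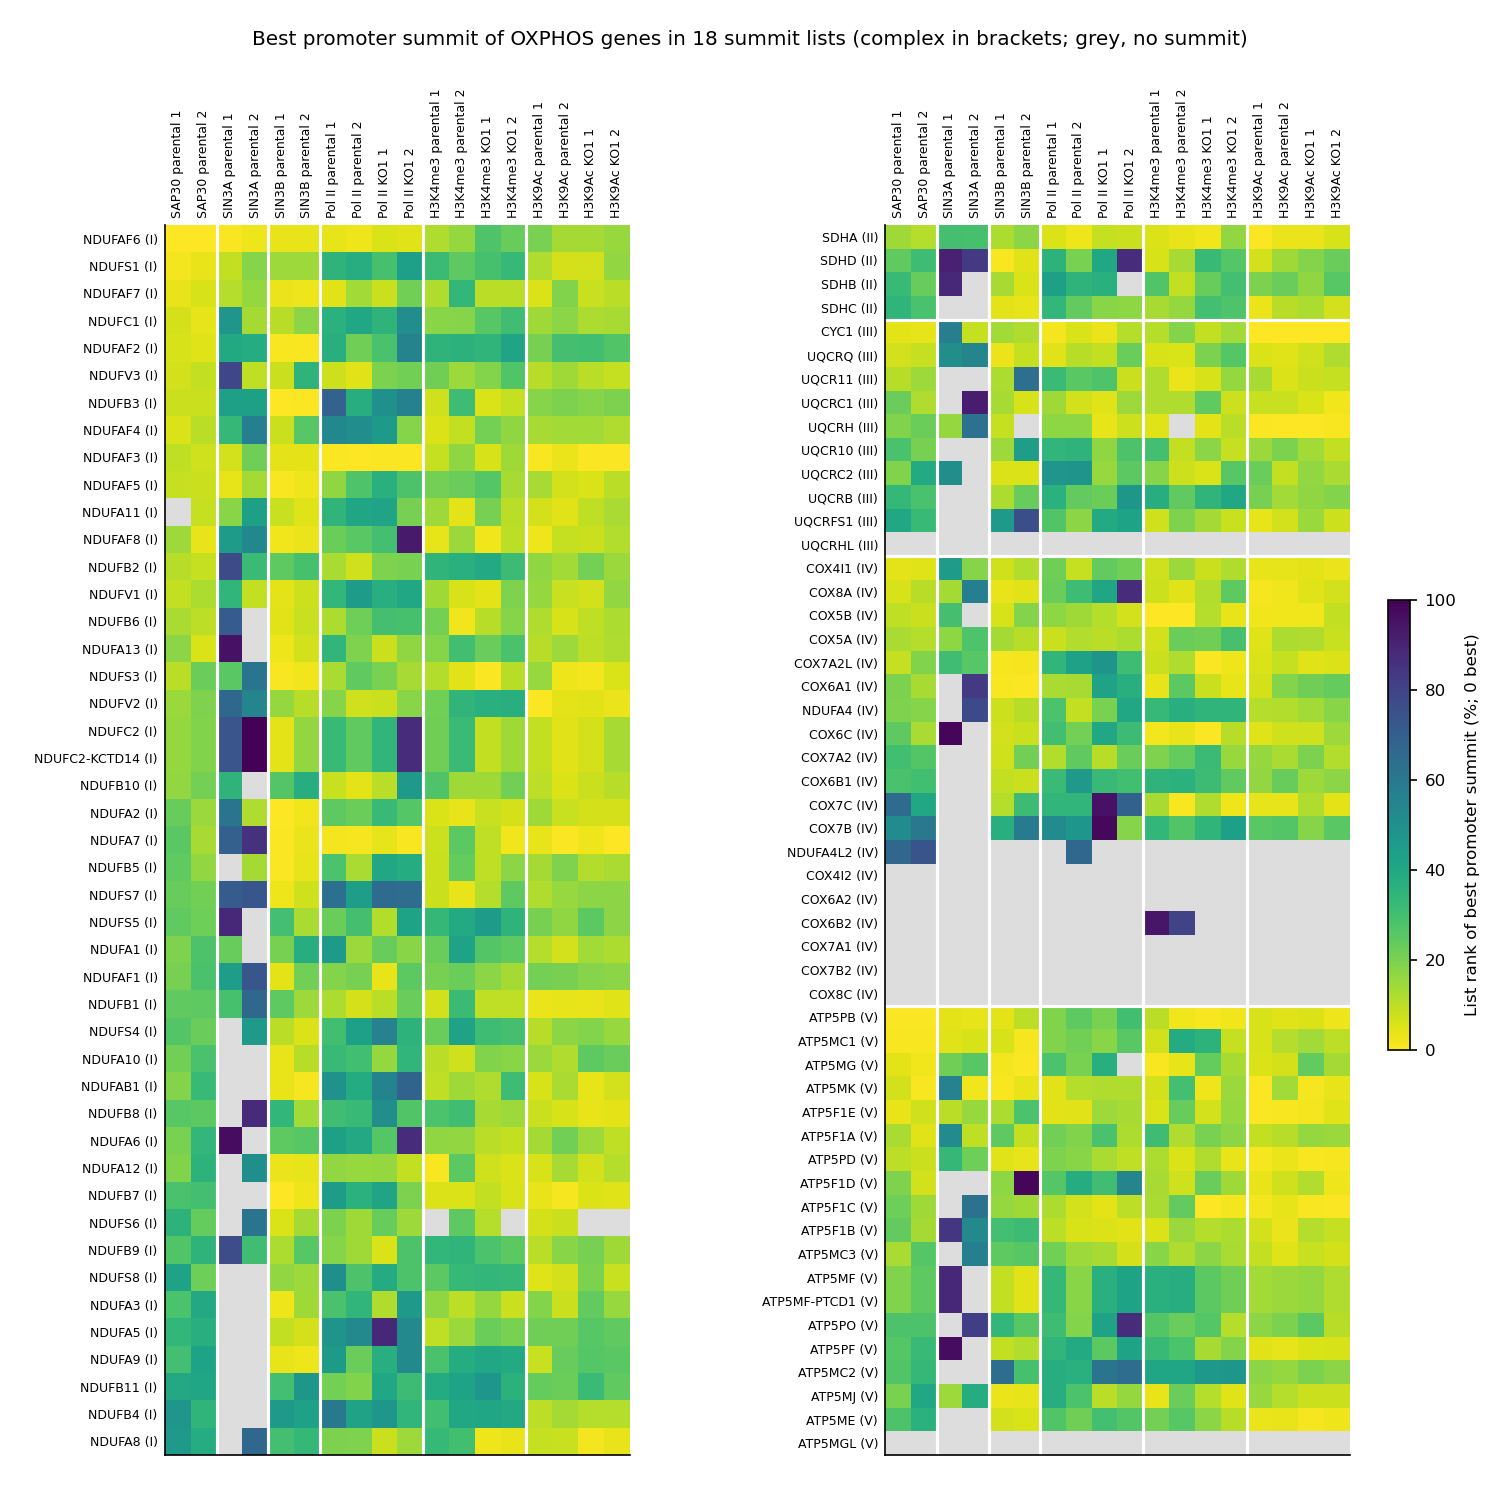
List rank of the best promoter summit (colour, 0% best; grey, no summit) of the genes reported by name (rows, by complex) in the 18 summit lists (columns). Within a complex, genes are ordered by their mean SAP30 rank with restricted and retrocopied forms last, and the rows that are wholly or mostly grey are those forms (NDUFA4L2 and COX6B2 have a few coloured cells), while grey cells in the SIN3A columns are spread over all complexes.

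The members without SAP30 were tissue-restricted or retrocopied forms. They also had no Pol II or H3K9Ac promoter summit in parental cells, and COX6B2 alone of them had H3K4me3. No SAP30 summit in either library was found at 8 members: COX4I2, COX6A2, COX6B2, COX7A1, COX7B2, COX8C, UQCRHL and ATP5MGL. COX4I2 is a lung and hypoxia form, COX6A2 and COX7A1 are heart and skeletal muscle forms, and COX6B2, COX7B2 and COX8C are testis forms. The nearest SAP30 summit was 23915 and 23922 bp away at COX4I2, 14720 and 14740 bp at COX6A2, and 11889 and 10911 bp at COX7A1. At COX8C it was 14395 and 14722 bp away, at COX6B2 13203 and 13571 bp, and at COX7B2 123456 and 123536 bp. UQCRHL and ATP5MGL are retrocopied or retrocopy-like forms of UQCRH and ATP5MG. Reads of copied sequence can map to more than 1 place, so their lack of summits (nearest SAP30 summit 7045 and 4824 bp away in replicate 1) is uncertain. How alike the copies are around their starts was not measured.

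Their general counterparts were occupied. COX6A1 had SIN3B ranks of 1.10 and 0.401 and SAP30 ranks of 19.9 and 13.1. COX4I1 had SAP30 ranks of 4.01 and 4.79, and COX7A2 of 30.2 and 26.9. COX8A had SAP30 ranks of 6.18 and 10.6, and COX6B1 of 28.5 and 30.3. COX7B, on the X chromosome, ranked lowest of these, with SAP30 at 51.6 and 59.8 and SIN3B at 37.5 and 58.6. So in the 6 fixed pairs of COX genes every general form had SAP30 and SIN3B in both libraries and no tissue-restricted form had either. These restricted forms also lacked Pol II and H3K9Ac. Whether SAP30 and SIN3B differ between the forms apart from promoter activity was not tested. The fixed pair of NDUFA4 and NDUFA4L2, also in complex IV, differed. NDUFA4L2, a hypoxia-induced relative of the complex IV subunit NDUFA4, lay between. It had SAP30 summits at ranks of 66.9 and 74.1, a Pol II summit in 1 parental library at 66.3, and no SIN3A, SIN3B, H3K4me3 or H3K9Ac promoter summit, whereas NDUFA4 had SAP30 ranks of 19.4 and 18 and SIN3B ranks of 7.48 and 10.8.

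A few members missed a list only by position. NDUFA11, an accessory subunit of complex I, had its nearest SAP30 summit 1087 bp from the start in replicate 1 and 95 bp in replicate 2. UQCRH, the hinge subunit of complex III, had SIN3B summits 75 and 1543 bp away. It lies beside LRRC41, with which it shares its start region. In all, 46 members had a start site within 1000 bp of that of another protein-coding gene, 42 of them of a gene outside the list, and a summit there cannot be given to either gene alone.

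Of the proteins, SIN3B lay farthest above its background by rank. Its median list rank over members was 7.90 and 10.8 in the replicates, against 20.6 and 21.3 over all genes with a SIN3B promoter summit. SAP30 went the other way, with member medians of 19.3 and 19.9 against 17.2 and 17.6. SIN3A medians were 44.6 and 43.0 against 37.0 and 37.4, and Pol II medians 27.2 and 21.8 against 27.2 and 24.8. H3K4me3 had 14.3 and 22.4 against 24.2 and 26.1, and H3K9Ac 9.13 and 8.88 against 12.1 and 12.5.

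To set SIN3B beside SAP30, ranks were turned into percentiles among the genes with a promoter summit in that list. In the replicates, 72 of 89 and 65 of 88 members were better placed than the median gene for SIN3B, and 36 of 89 and 40 of 90 for SAP30. Both SIN3B percentiles were better than both SAP30 percentiles at 56 of the 87 members with all 4 summits, 64.4%, against 24.4% of 10179 genes. Both SAP30 percentiles were better at 9 members, 10.3%, against 41.4%. By complex, SIN3B was the better placed at 32 of 45 genes of complex I, 3 of 4 of complex II, 3 of 8 of complex III, 9 of 12 of complex IV and 9 of 18 of complex V. Mitochondrial ribosomal genes gave 48 of 75, 64.0%, and cytosolic ribosomal genes 39 of 84, 46.4%. The antibodies differ, so the percentiles compare the places of a promoter in 2 kinds of list and not amounts of protein.

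**Figure D2:**
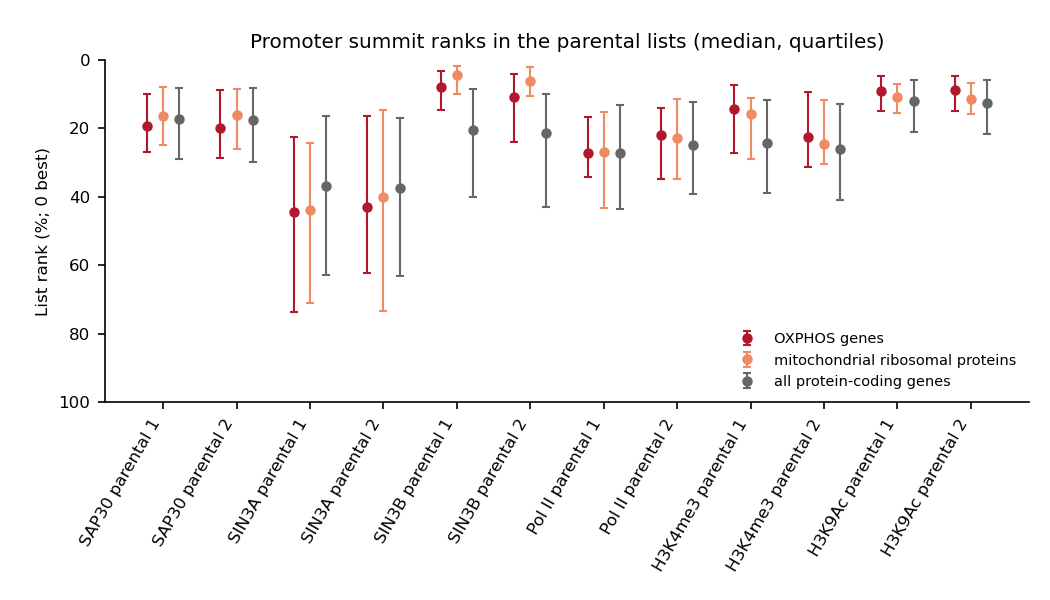
List rank (vertical axis, 0% best at the top) of the best promoter summit in the 12 parental lists for the 98 genes (red), mitochondrial ribosomal protein genes (orange) and all protein-coding genes (grey) that had a summit; points are medians and bars run between the quartiles. The SIN3B medians of the first group, 7.90 and 10.8, lie above those of all genes at 20.6 and 21.3.

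Members also differed among themselves. NDUFAF6, a complex I assembly factor, led the SAP30 lists at ranks of 0.153 and 0.191 and the SIN3A lists at 0.855 and 2.43. ATP5PB, the b subunit of the peripheral stalk of ATP synthase, came next with SAP30 at 0.573 and 0.410 and SIN3A at 4.18 and 3.14. ATP5MC1, which encodes a protein of the membrane c-ring, had SAP30 at 0.901 and 1.14 and SIN3A at 4.73 and 5.94. These 3 were also the best 3 in SIN3A, so the head of the SAP30 list and of the SIN3A list was shared. NDUFS1, the largest iron-sulfur subunit of complex I, had SAP30 at 1.83 and 3.26, and ATP5MG, a membrane subunit of ATP synthase, at 4.24 and 2.03. The next in SIN3A were the assembly factor NDUFAF5 at 3.90 and 13.4 and ATP5F1E, the epsilon subunit, at 10.4 and 15.4. NDUFAF6 shares its start region with CCNE2 and TP53INP1, ATP5PB with WDR77, NDUFS1 with EEF1B2 and NDUFAF5 with ESF1. ATP5MG shares its own with a gene that has no symbol. The SAP30 summits of NDUFS1 lay at −568 and −532 bp from its start.

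The head of the SIN3B list held other genes. NDUFB3, an accessory subunit of complex I, had SIN3B ranks of 0.257 and 0.516 with SAP30 at 8.04 and 8.0. COX6A1 was next, and the assembly factor NDUFAF2 had 1.14 and 0.996. NDUFA2, another accessory subunit, had 0.198 and 2.02, and ATP5MG 1.81 and 0.744. ATP5MG alone was among the best 5 of both SAP30 and SIN3B. NDUFB3 shares its start region with HYCC2, NDUFAF2 with ERCC8 and NDUFA2 with IK.

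Members with SIN3A had better SAP30 ranks. Of the 87 members with SAP30 and SIN3B in both libraries, 40 had SIN3A in both, 25 in 1 and 22 in neither. Their median SAP30 ranks were 9.22 and 8.95, 20.0 and 23.1, and 30.0 and 31.3, in that order. All protein-coding genes followed the same order, with 8.41 and 8.64, 19.9 and 20.6, and 29.0 and 30.2. SIN3B medians of members were 3.92 and 8.18, 9.16 and 10.8, and 11.8 and 22.3, each better than the values of all genes (14.5 and 16.4, 24.7 and 27.6, and 37.5 and 37.8). The 22 members with SAP30 and SIN3B but no SIN3A were 22.4% of the list against 8.87% of all genes, many of which lack SAP30 or SIN3B. Of the genes with SAP30 and SIN3B in both libraries, SIN3A was in neither at 22 of 87 members and at 1783 of 10179 genes. The 22 members included NDUFB7, COX6B1, COX7A2, COX7C, UQCRFS1, SDHC and NDUFS8. SIN3A was in both libraries at all 8 NDUFAF assembly factors, at 10 of the 30 accessory subunits of complex I, at 5 of its 7 core subunits and at 3 of the 11 general subunits of complex IV, beside 31.5% of all genes and 54.3% of marked genes. The differences between these classes were not tested. All NDUFAF genes but NDUFAF1 and NDUFAF4 share their start region with a gene outside the list, as do 42 of all 98 members. A SIN3A summit there cannot be given to either gene alone. SIN3A replicates differed more than those of other targets, by a median of 20.0 rank points over 42 members against 5.67 for SAP30 and 4.17 for SIN3B. The SIN3A lists were also the shortest, with 11115 and 10861 summits, and the part of list length in the missing SIN3A summits was not tested.

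**Figure D3:**
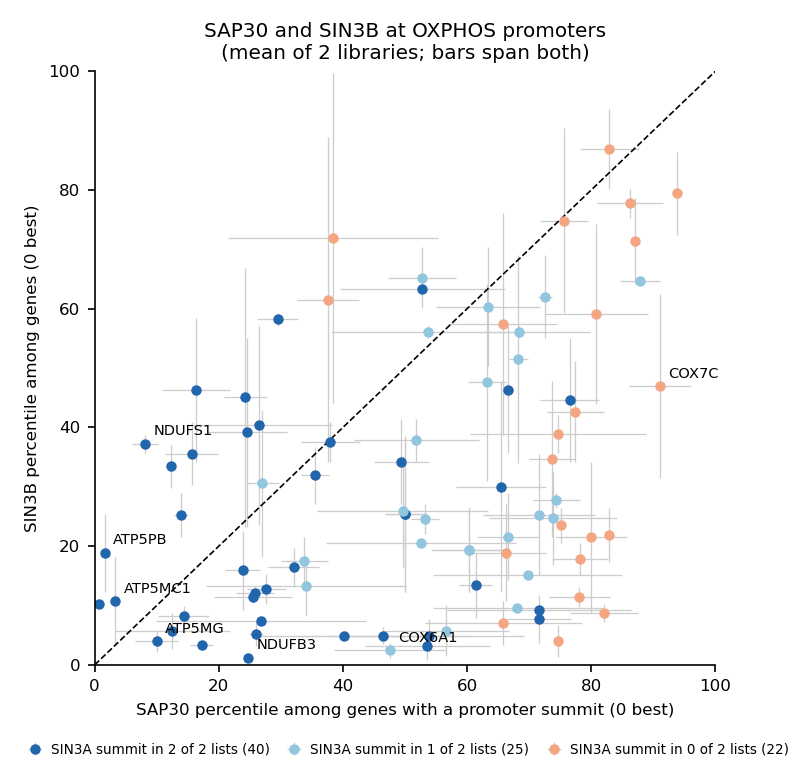
SAP30 (horizontal axis) and SIN3B (vertical axis) percentile of the 87 genes with both proteins in both libraries, among protein-coding genes with a promoter summit in that list (0 best); points are means of 2 libraries, bars span both values and colours give the number of SIN3A lists with a summit. Points under the dashed line of equal percentiles are better placed for SIN3B, and the 40 genes with SIN3A in both lists have SAP30 list ranks with medians of 9.22 and 8.95.

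The motif strings went with SIN3A in an uneven way. SIN3A was in both libraries at 8 of 31 members with NRF1 letters, 25.8%, and at 29 of 46 without, 63.0%. Over all genes the order was the other way, 47.3% with and 31.1% without, but these shares also count promoters without SAP30. SAP30 had a replicate 1 summit at 2241 of 2579 genes with NRF1 letters and 7840 of 12710 without. Among members these were 28 of 31 and 44 of 46. Whether this accounts for the order was not tested. YY1 letters went the same way, with SIN3A at 31.8% of 22 members with and 54.5% of 55 without. Over all genes the YY1 shares were 43.0% and 33.1%. For ETS letters the shares were 52.4% of 21 members with and 46.4% of 56 without, and 53.1% and 30.6% over all genes. Median SIN3B ranks were 5.99 and 6.29 in members with ETS letters and 8.11 and 10.8 without, and 10.7 and 12.6 against 22.9 and 26.0 over all genes.

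Summits sat where each target is usually found. SAP30 summits of members had a median distance of 70 and 54 bp after the start site in the parental replicates, SIN3A of −11 and 9 bp and SIN3B of −10 and 47 bp. Pol II summits lay at 16 and 30.5 bp, H3K4me3 summits at 163 and 173 bp and H3K9Ac summits at 212 and 196 bp. Pol II was the tightest, with 71 of 89 and 71 of 90 member summits within 100 bp of a start, 79.8% and 78.9%, against 67.2% and 68.0% over all genes. SIN3B was within 100 bp at 66 of 89 and 49 of 88 members, 74.2% and 55.7%, against 48.3% and 40.8%. SAP30 was so at 42.7% and 48.9%, near the 43.8% and 45.2% of all genes. In SAP30-KO1 the medians were 17 and 22 bp for Pol II, 180 and 155.5 bp for H3K4me3, and 208 and 224 bp for H3K9Ac.

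A fixed set of 21 main subunits had SAP30 and SIN3B in both libraries without exception, and 12 of them had SIN3A. Among marked genes of all kinds the shares were 98.3% for SAP30, 88.1% for SIN3B and 54.3% for SIN3A, so the SAP30 and SIN3A counts lay near that background. In complex I, NDUFV1 (the flavin subunit) had SAP30 at 9.07 and 12.2, NDUFV2 at 15.2 and 19.2 and NDUFS3 at 10.3 and 22.6. NDUFS7 had 23.2 and 21.3 and NDUFS8 41.9 and 22.1. NDUFS8 lacked SIN3A, and NDUFS3 had good SIN3B ranks of 1.02 and 2.33. In complex II the flavoprotein SDHA had SAP30 at 14.4 and 11.1, the iron-sulfur subunit SDHB at 32.5 and 23.1, and the membrane anchors SDHC and SDHD at 34.5 and 28.8 and at 24.3 and 31.2. SDHA also had the best Pol II ranks of the 4, 5.18 and 2.42.

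In complex III, CYC1 (cytochrome c1) had SAP30 at 3.92 and 3.82 and H3K9Ac at 0.166 and 0.210. UQCRC1 and UQCRC2, the core proteins, had SAP30 at 22.9 and 12.1 and at 19.0 and 38.7. UQCRFS1, the Rieske iron-sulfur protein, was the lowest of these by mean SAP30 rank, at 40.3 and 32.3, with SIN3B at 46.4 and 76.0 and no SIN3A. In complex IV, COX5A had SAP30 at 12.6 and 11.1 and COX5B at 9.67 and 7.98. COX5B had the best H3K4me3 ranks of the members, 0.284 and 0.188. In complex V, ATP5F1A and ATP5F1B, the alpha and beta subunits of the catalytic head, had SAP30 at 12.8 and 4.66 and at 24.1 and 13.5, and the gamma subunit ATP5F1C had 22.2 and 14.3.

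The question for SAP30-KO1 was whether Pol II or the marks at these promoters rank otherwise than in parental cells. The libraries hold a single knockout line and no control or rescue line. Loss of SAP30 therefore cannot be told apart from other differences between the lines. With 2 libraries against 2 an exact permutation test cannot go below p = 0.33, so the test was limma on the ranks of all genes with a promoter summit in all 4 lists, with Benjamini-Hochberg adjustment. It called no member for any target, against 0% of 10706 genes for Pol II, 0% of 12531 for H3K4me3 and 0.0083% of 12048 (1 gene) for H3K9Ac. By limma, the lowest adjusted p of a member was 0.37 (Pol II), 0.59 (H3K4me3) and 0.39 (H3K9Ac). At an unadjusted limma p under 0.05, Pol II had 4 members better in SAP30-KO1 (background 4.35%) and 8 worse (4.32%) of 87. H3K4me3 had 9 better (4.13%) and 7 worse (3.94%) of 87, and H3K9Ac 2 better (4.15%) and 7 worse (4.38%) of 88. The 9 include NDUFC2 and ATP5MF as well as the read-through genes that share their summits. With 1 gene for each set of summits, 14 of 85 members had such a limma p for H3K4me3, in either direction. A member share above the background at this level is a description of the list and not a test of it. The values that follow are therefore differences between 2 and 2 libraries that did not pass the test.

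As a group, the medians of both lines overlapped for Pol II and H3K4me3 and did not for H3K9Ac, and all genes showed the same pattern, with H3K9Ac medians of 11.6 and 12.1 in parental and 12.6 and 12.2 in SAP30-KO1 libraries. The median Pol II rank was 27.2 and 21.6 in parental and 24.1 and 28.1 in SAP30-KO1 libraries over the 87 members tested, and the median of the differences was 3.30 rank points worse against 1.48 over all genes. For H3K4me3 the medians were 14.3 and 22.3, and 17.4 and 15.8, so both knockout libraries lay between the parental ones, and the median difference was 0.14 against 2.09 over all genes. For H3K9Ac they were 9.25 and 8.89, and 11.2 and 11.1, and the median difference was 0.98 against 0.31 over all genes.

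Both knockout ranks were worse than both parental ranks for Pol II at 28 of 87 members, 32.2% against 24.2% of all genes, and better at 12, 13.8% against 15.4%. For H3K4me3, 20 of 87 were worse (23% against 28.1%) and 16 better (18.4% against 11.5%). The 28 for Pol II and the 16 for H3K4me3 both include NDUFC2 and ATP5MF together with the read-through genes that share their summits. For H3K9Ac, 24 of 88 were worse (27.3% against 22.1%) and 14 better (15.9% against 16.4%). By complex, H3K9Ac was worse at 6 of 11 general subunits of complex IV and better at none, and Pol II was worse at 15 of 46 and better at 3 of 46 genes of complex I. Other groups leaned to better, with 3 better and 1 worse of 9 for Pol II in complex III, 6 better and 3 worse of 18 for H3K4me3 in complex V, and 2 better and 0 worse of 8 for H3K9Ac in the assembly factors. Without its read-through gene, complex V had 5 better and 3 worse of 17 for H3K4me3. Of the 21 main subunits, H3K9Ac was worse at 7 and better at 2, H3K4me3 was worse at 6 and better at 1, and Pol II was worse at 4 and better at 4 of the 20 tested.

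**Figure D4:**
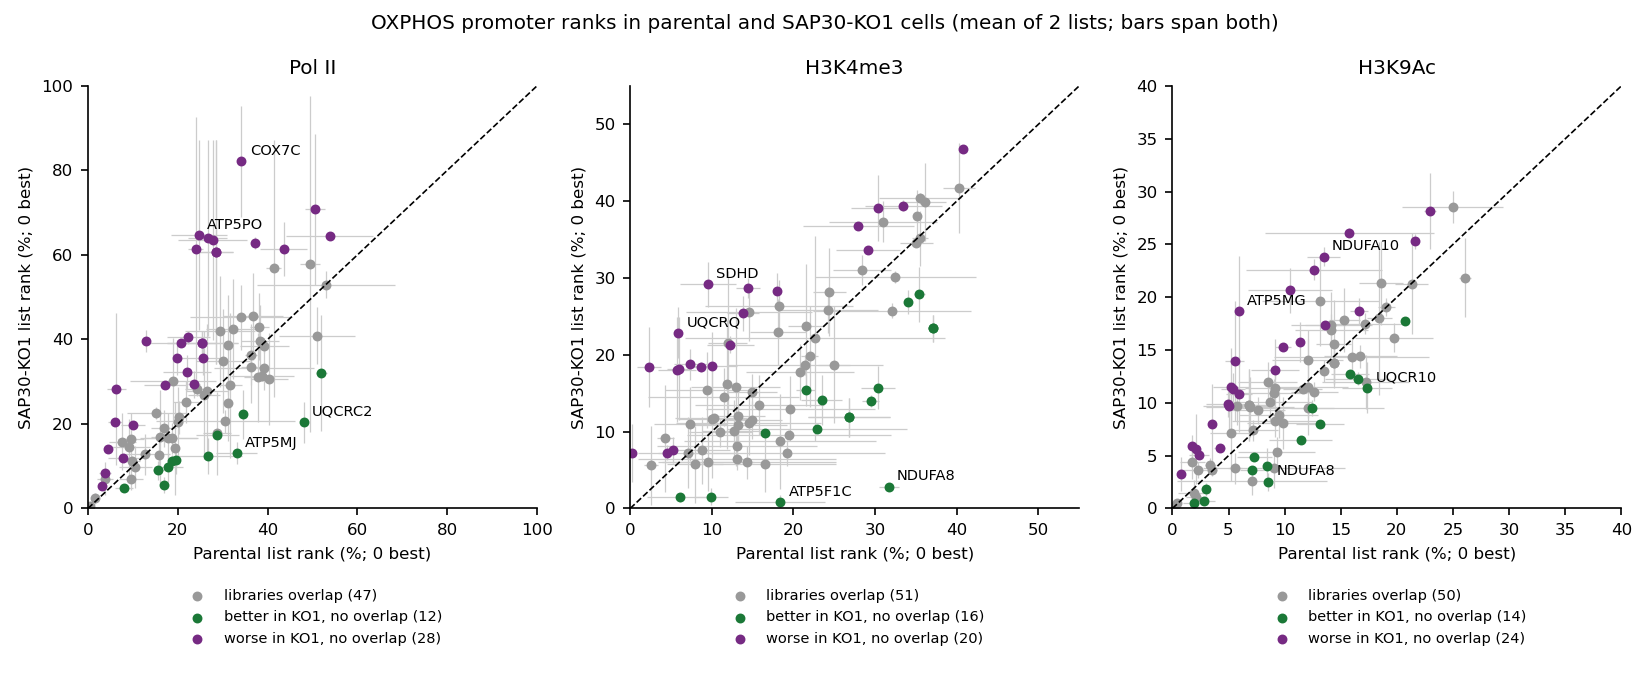
Mean list rank of each gene in parental (horizontal axis) and SAP30-KO1 cells (vertical axis; 0% best) for Pol II, H3K4me3 and H3K9Ac; bars span the 2 libraries. Green and purple points have both knockout ranks better or worse than both parental ranks (12 and 28 for Pol II, 16 and 20 for H3K4me3, 14 and 24 for H3K9Ac), grey points overlap, and the dashed line marks equal ranks.

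The largest Pol II differences without overlap were at UQCRC2 and ATP5MJ, which were better placed in SAP30-KO1, and at COX7C and ATP5PO, which were worse placed. UQCRC2 ranked 47.9 and 48.1 in parental and 15.6 and 25.3 in SAP30-KO1 libraries, a normal score difference of 1.47 ± 0.39 (SE) with an adjusted limma p of 0.37. ATP5MJ, a small ATP synthase subunit that shares its start region with TDRD9, ranked 37.7 and 28.5, then 10.5 and 15.7. COX7C, a small subunit of complex IV, ranked 34 and 34.3, then 95.3 and 69.0, a normal score difference of −1.58 ± 0.46 (SE) with an adjusted limma p of 0.38. ATP5PO, the oligomycin sensitivity protein of the ATP synthase stalk, ranked 31.0 and 18.4, then 42.4 and 87.1. The rank of 87.1 was shared by 6 members and 280 summits of the second SAP30-KO1 list that had the same low score, so ATP5PO, SDHD, COX8A and NDUFC2 were worse mainly by that library. SDHB and ATP5MG had Pol II summits in 3 lists and none near the start in that same library (nearest 42185 and 23349 bp away), and COX7B ranked 51.7 and 47.3, then 97.7 and 18.

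For H3K4me3, NDUFA8 and ATP5F1C were better and SDHD and UQCRQ worse. NDUFA8, an accessory subunit of complex I on the intermembrane side (chromosome 9, 124906337 to 124922058, minus strand), ranked 32.9 and 30.5 in parental and 2.52 and 3.16 in SAP30-KO1 libraries. ATP5F1C ranked 12.9 and 23.9, then 0.0024 and 1.71, so the best summit of the first SAP30-KO1 list lay within 1000 bp of its start. These summits were at −382 and −430, then −417 and −397 bp from the start. ATP5F1C shares its start region with KIN, so they cannot be given to ATP5F1C alone. SDHD (chromosome 11, 111957548 to 111990739, plus strand) ranked 6.11 and 13.0, then 32.1 and 26.3, and UQCRQ, a small subunit of complex III, 5.95 and 5.75, then 19.6 and 26.2. The best SDHD summit lay at −343 and −304 bp from the start in parental and at 302 and 109 bp in SAP30-KO1 libraries. UQCRQ shares its start region with GDF9. Each of the 4 had an adjusted limma p of 0.59 or 0.60. COX5B, first of the parental members, ranked 10.9 and 3.49 in SAP30-KO1.

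For H3K9Ac, NDUFA8 and UQCR10 were better and ATP5MG and NDUFA10 worse. NDUFA8 ranked 8.61 and 8.39, then 1.69 and 3.38. UQCR10, a small subunit of complex III, ranked 15.1 and 19.6, then 13.8 and 8.99. ATP5MG ranked 5.55 and 6.31, then 23.9 and 13.5, with the lowest adjusted limma p of the members for this mark, 0.39. NDUFA10, an accessory subunit of complex I, ranked 15 and 11.9, then 24.8 and 22.9. The best summit of some of these genes changed place. It lay at 247 and 287, then −260 and −209 bp from the start at NDUFA10. At UQCR10, which shares its start region with ZMAT5, it lay at −718 and −713, then −678 and 197 bp. For ATP5MG the places were 115 and 187, then −356 and 178 bp. NDUFA8 summits stayed at 199 and 184, then 204 and 230 bp.

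**Figure D5:**
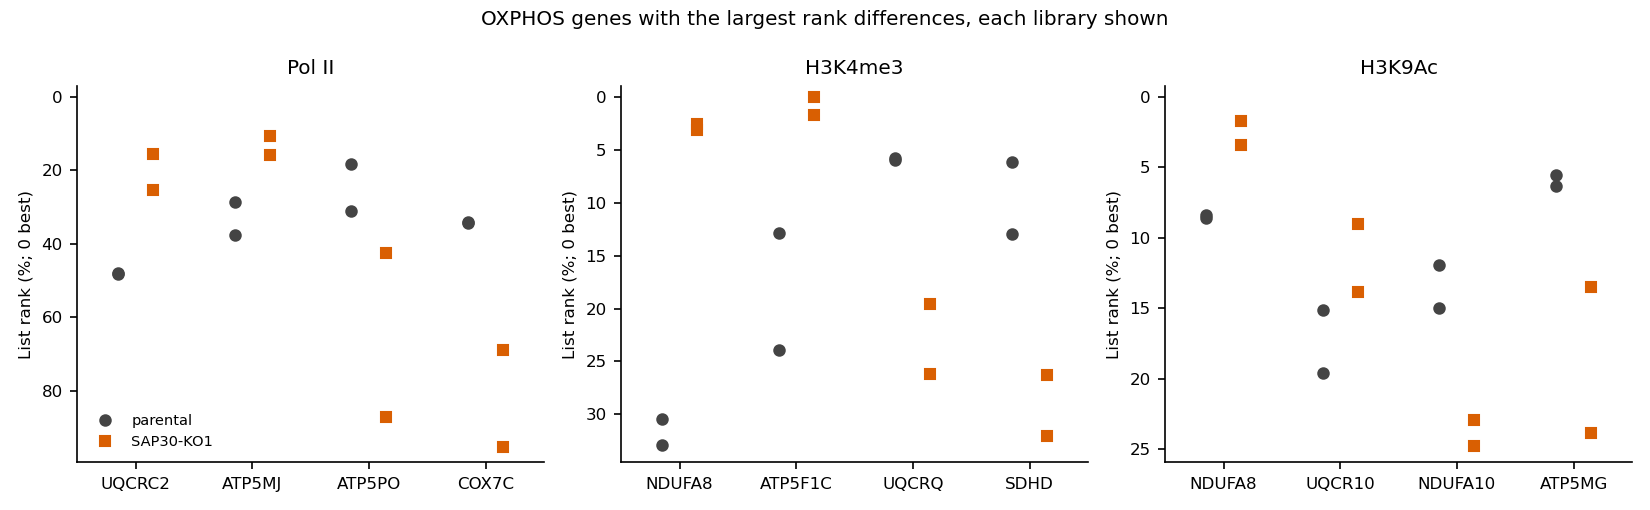
List rank (vertical axis, 0% best at the top) in each library of the genes with the largest differences without overlap for Pol II, H3K4me3 and H3K9Ac; circles are parental and squares SAP30-KO1 libraries. The groups are apart at each gene shown, and the squares of ATP5PO for Pol II, at 42.4 and 87.1, are farther from each other than the circles.

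A few members went the same way in several targets. Both knockout ranks were better than both parental ranks in at least 2 of the 3 targets at 8 of 85 members with all 12 summits, against 8.12% of genes, and worse in at least 2 at 19, against 15.8%. NDUFA8 was better in all 3, with Pol II at 19.7 and 19.4, then 8.18 and 14.7. ATP5MC2, COX8A, NDUFA5, NDUFS7 and SDHD were worse in all 3. Of 85 members these were 1 and 5, against 1.1% and 2.92% of all genes. NDUFA8 shares its start region with MORN5 and SDHD with TIMM8B. COX5B went both ways, better for Pol II (17.0 and 14.4, then 11.3 and 6.72) and worse for H3K4me3 and H3K9Ac.

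Part of this lay on the long arm of chromosome 11, where 7 members map (COX8A, NDUFV1, NDUFS8, NDUFC2, NDUFC2-KCTD14, SDHD and ATP5MG). Other genes of that arm were also worse in SAP30-KO1, at 54.3% (Pol II), 58.1% (H3K4me3) and 64.6% (H3K9Ac), with median differences of 9.92, 8.54 and 5.11 rank points. Of the members there, 4 of 6, 4 of 7 and 4 of 7 were worse, while for H3K4me3 NDUFC2 and NDUFC2-KCTD14, which share their summits, were better, as were 2.5% of the other genes of the arm. Without the long arms of chromosomes 11 and 16, the members worse were 24 of 80 for Pol II, 16 of 79 for H3K4me3 and 20 of 80 for H3K9Ac. The shares of all genes given earlier (24.2%, 28.1% and 22.1%) include these arms, so they are not a like background for these counts. Whether the arm accounts for the values of SDHD, COX8A and ATP5MG was not tested.

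Losses and gains of whole promoter peaks were few. A peak in both parental and neither knockout library was found at no member for Pol II (background 1.34%), at COX6B2 for H3K4me3 (0.916%) and at NDUFS6 for H3K9Ac (0.423%). No member gained a peak in any target (0.134%, 0.104% and 0.328%). The parental H3K4me3 summits of COX6B2 were weak, at ranks of 94.1 and 79.4, and the nearest knockout summits were 14343 and 14393 bp away. At NDUFS6, an accessory subunit of complex I, H3K9Ac summits lay 256 and 289 bp from the start in parental and 1859 and 1852 bp in SAP30-KO1 libraries. Within 3000 bp NDUFS6 ranked 4.77 and 4.20, then 3.36 and 0.934, so a well-ranked summit was present farther from the start. MRPL36 starts beside it.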

How the data were processed

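Each file lists the summits of peaks in a single library, made by the authors with MACS2 (2.1.0). Per the labels, reads were aligned with Bowtie2 (2.3.3.1) to hg19 after FastQC (0.11.2), with Picard also named in the submitters' processing notes. The options were not given in the sources used here. Each deposited summit is 1 bp wide and carries the −log10 of its q-value, with a lowest value of 1.30, so weaker peaks are absent. Read counts and depth are unknown. Scores served to rank summits within a list only.

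The best summit within 1000 bp of a start site of a basic transcript was taken per gene. Ranks of genes with a summit in all 4 lists of a target were turned into normal scores and tested across all genes with limma 3.58.1 (two-sided, Benjamini-Hochberg, called at adjusted p under 0.05), a procedure checked on simulated data. Genes named were those best ranked for SAP30, SIN3A and SIN3B, those without SAP30 or with a lost peak, 21 main subunits, pairs of general and restricted forms, and the largest differences without overlap. NDUFA11, NDUFB7, NDUFA5, ATP5MC2 and the rest of the genes named outside these were chosen after their values were seen. A member is counted but not reported by name here. Members, lists and tests were chosen with earlier results of these data known. Alternatives were windows of 500 and 3000 bp, all transcripts, other scores, equal lengths, single libraries left out, the replicate block and, chosen after seeing the data, ranks among genes with summits in all 4 lists.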

Additional observations from a re-analysis of the deposited data

How the results depend on the processing

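The limma test called 0 members for Pol II, H3K4me3 and H3K9Ac under every alternative, with an adjusted p of at least 0.136 throughout and 4 to 18, 5 to 16 and 4 to 15 members at an unadjusted p under 0.05. The replicate block also called 0, with 13, 12 and 11 members at an unadjusted p under 0.05 (12, 16 and 9 without it), and over all genes it called 43 for H3K9Ac against 1. Quantile normalised log2 scores called 142 genes for H3K4me3 against 0, and no member. Same-numbered replicates did not deviate together (correlations across genes of 0.007, −0.019 and −0.014). The labels do not say whether they shared a preparation, and these correlations cannot decide it. In the better-ranked 50% of each list, SIN3A was at 20 members and all 3 proteins at 19. H3K4me3 losses were 0 with lists of equal length, and H3K9Ac losses were 2 at 500 bp and 0 at 3000 bp. With 1 library left out, fewer libraries can overlap. Pol II was then better at 16 to 27 and worse at 37 to 51 members, H3K4me3 better at 26 to 36 and worse at 29 to 38, and H3K9Ac better at 23 to 27 and worse at 37 to 41. Of the alternative counts, 139 stayed within 1.5 times their main value and 24 did not. The 139 include the limma counts of 0 and some of the counts just given. Depth is unknown, ranks depend on the other peaks of a list, and with 2 libraries a group only large differences could pass.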

Other observations

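Related gene groups had promoter ranks of their own. The 50 complex I to V assembly factors outside the symbol rule had SAP30 in both parental libraries without exception, at median list ranks of 11.7 and 13.4, and SIN3A in both at 32, 64.0%. The 78 mitochondrial ribosomal protein genes had SAP30 at all, with medians of 16.3 and 16.2, and SIN3B medians of 4.50 and 6.03. The 87 cytosolic ribosomal protein genes had Pol II medians of 6.52 and 4.94, against the 27.2 and 21.8 of the oxidative phosphorylation genes. The 12 regulators of the programme, such as NRF1, GABPA and PPARGC1A, had SIN3A at 9 and SIN3B medians of 24.0 and 24.2, and SIN3B was the better placed of SIN3B and SAP30 at 1 of 11 and SAP30 at 6.

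In SAP30-KO1, limma called no gene of these groups at an adjusted p under 0.05. Both knockout ranks were worse than both parental ranks for Pol II at 28 of 84 cytosolic and 13 of 74 mitochondrial ribosomal genes (24.2% of all genes) and better at 5 and 7 (15.4%). For H3K4me3, 23 of 83 and 17 of 76 were worse (28.1%) and 9 and 11 better (11.5%). For H3K9Ac, 16 of 83 and 24 of 77 were worse (22.1%) and 10 and 10 better (16.4%).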
